A study of Caenorhabditis elegans with 2 samples.

Results

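Mature sequences derived from the hairpins mir-60, mir-240 and mir-786 of Caenorhabditis elegans were examined in worms given enoxacin and in worms given its vehicle. Members (cel-miR-60, cel-miR-240 and cel-miR-786, written without the species prefix from here on) were taken by miRNA number from the authors' table of mature microRNA (miRNA) loci, with both arms of each hairpin, which gave 6 of the 375 loci listed. The treated worms had received enoxacin, an antibiotic of the fluoroquinolone class that enhances miRNA processing in mammalian cells. The other worms had received vehicle. Both groups were whole worms of the wild-type strain N2 with age given as Day 1, so no mutation or transgene separated them. Each group was 1 small RNA library, and the sources used here give neither the dose, nor the length of exposure, nor whether the 3 independent experiments behind the worms were pooled.

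A miRNA hairpin is cut by Dicer into a duplex, and one arm (5p or 3p) is usually loaded into Argonaute and pairs through its seed with target mRNAs while the other arm is largely degraded. miR-60 is known as an intestine-enriched miRNA whose loss has been linked to better adaptation to mild, long-lasting oxidative stress. mir-240 and mir-786 are neighbours on chromosome X, and worms that lack both are known for a disturbed defecation rhythm. miR-786 acts in the intestine, where it is known to limit the fatty acid elongase gene elo-2 and to set where the defecation calcium wave starts. The intestine and gonad names of these miRNAs come from such earlier knowledge. Whole worms were sequenced, so the tissue of origin could not be checked, and more cells of a type cannot be told apart from more miRNA per cell.

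The total of each library behind the authors' RPM values (read counts divided by that total and brought to a common scale) was 8787665 reads for enoxacin and 10698845 for vehicle. All miRNA loci together took 3.78% of the enoxacin total and 3.74% of the vehicle total. Of the 375 loci, 152 had at least 20 reads over both libraries and were compared. With 1 library per group no difference could be tested. Ratios of enoxacin to vehicle carry exact 95% intervals that cover counting error only, and a locus was called higher or lower where the ratio passed 1.5-fold and the interval excluded 1. By this criterion 13.2% of the compared loci were higher in enoxacin, 7.89% were called lower, and the median log2 ratio of all of them was 0.13.

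Of the 5 member loci that reached 20 reads, miR-60-3p and miR-240-3p were higher in enoxacin, none was lower, and miR-60-5p, miR-240-5p and miR-786-3p were neither. miR-786-5p fell under the minimum. The 6 loci together took 0.356% of the miRNA reads in enoxacin (1184 reads) and 0.181% in vehicle (723 reads). Most of these were miR-60-3p reads, at 0.273% in enoxacin (907 reads) and 0.122% in vehicle (488 reads), so this sum mainly shows that locus. The ratio of enoxacin to vehicle was above 1 for each 3p arm by value, and the 5p arm of each hairpin had a smaller share of its reads in enoxacin by value.

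miR-60-3p, the abundant arm of mir-60, lies on chromosome II from 6328685 to 6328707 on the minus strand (ce10). It had 907 reads in the enoxacin library, or 103.2 RPM (95% exact Poisson interval 96.6 to 110.2), and 488 reads in the vehicle library, or 45.6 RPM (41.7 to 49.8). The counting intervals of the libraries did not overlap, and the ratio was 2.26 (2.02 to 2.53), the 8th highest of the 152. Its place among all loci by read count was 39 in enoxacin and 49 in vehicle.

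The opposite arm, miR-60-5p (6328725 to 6328746, minus strand), was rare. It had 10 reads in enoxacin (1.14 RPM, 0.546 to 2.09) and 17 in vehicle (1.59 RPM, 0.926 to 2.54), with a ratio of 0.716 (0.293 to 1.66). These intervals overlapped, so no difference was detectable at this depth, but the upper bound of 1.66 lay below the lower bound of 2.02 for miR-60-3p. With both arms summed, mir-60 had 917 reads in enoxacin and 505 in vehicle, a ratio of 2.21 (1.98 to 2.47). Of the 103 hairpins with at least 20 reads after their arms were summed, 12.6% counted as higher in enoxacin and 6.8% as lower.

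The mir-240 hairpin differed from mir-60 in that both of its arms were recovered at like levels. miR-240-3p, at 7882634 to 7882655 of chromosome X on the plus strand, had 136 reads in enoxacin, 15.5 RPM (13.0 to 18.3), and 92 reads in vehicle, 8.60 RPM (6.93 to 10.5). Its ratio was 1.80 (1.37 to 2.37), and the intervals of its levels did not overlap. miR-240-5p (7882595 to 7882617) had 98 reads in enoxacin, 11.2 RPM (9.05 to 13.6), and 96 in vehicle, 8.97 RPM (7.27 to 10.96). The intervals of miR-240-5p overlapped, and its ratio of 1.24 (0.928 to 1.66) met neither part of the criterion. Summed over both arms, mir-240 had 234 reads in enoxacin and 188 in vehicle. That ratio was 1.52 (1.245 to 1.85), and of the 5 scalings run only the authors' library totals had mir-240 as a whole called higher. Under the 4 other scalings it was below 1.5-fold, with log2 ratios from 0.46 to 0.58 in place of 0.60.

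mir-786 gave the fewest reads. miR-786-3p, the arm with the intestinal role, is encoded at 7882756 to 7882778 of chromosome X, plus strand. It had 30 reads in enoxacin, 3.41 RPM (2.30 to 4.87), and 22 reads in vehicle, 2.06 RPM (1.29 to 3.11). Its ratio of 1.66 (0.926 to 3.02) was above 1.5-fold, but the interval held 1 and the intervals of the levels overlapped. With 22 reads in vehicle, 33 in enoxacin would have met the criterion. miR-786-5p (7882718 to 7882740) had 3 reads in enoxacin (0.341 RPM) and 8 reads in vehicle (0.748 RPM). The limit that a count of 0 allows is 0.341 RPM in enoxacin, so that value stood at the limit. Both arms together had 33 reads in enoxacin and 30 in vehicle, with a ratio of 1.34 (0.792 to 2.27).

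**Figure D1:**
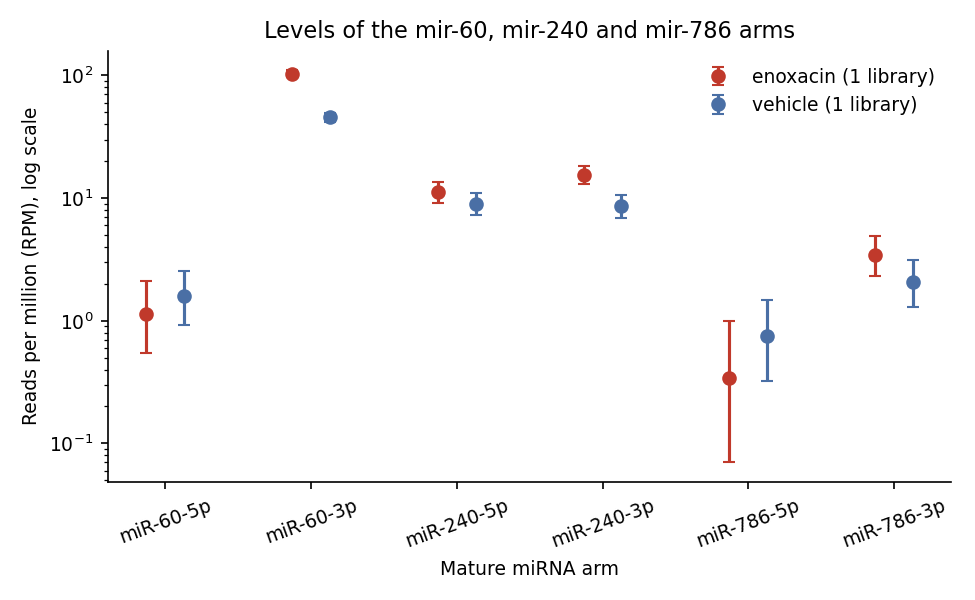
Levels of the 6 arms in RPM on a log axis, with the enoxacin library left of the vehicle library for each arm; points are single libraries and bars are 95% exact Poisson intervals of the counts. The bars of the libraries are apart for miR-60-3p (103.2 RPM in enoxacin, 45.6 RPM in vehicle) and miR-240-3p (15.5 RPM in enoxacin, 8.60 RPM in vehicle) and overlap for the other 4 arms.

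The order of the levels was nearly the same in both libraries. All 6 sequences were listed at 22 or 23 nucleotides. Whether library preparation captured each sequence equally well was not measured, so the order is one of reads recovered. In enoxacin the order was miR-60-3p, miR-240-3p, miR-240-5p, miR-786-3p, miR-60-5p and miR-786-5p. In vehicle, miR-240-5p stood just above miR-240-3p. Neighbours whose Poisson intervals overlapped were the mir-240 arms in both libraries, miR-60-5p and miR-786-5p in both, and miR-786-3p and miR-60-5p in vehicle. miR-60-3p had 6.67 times the reads of miR-240-3p in enoxacin and 5.30 times in vehicle.

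Among all compared loci, the 3p arms of mir-60 and mir-240 lay within the upper part of the ratios but were not at its edge. miR-240-3p held place 17 of 152 by log2 ratio, miR-786-3p place 28, miR-240-5p place 60 and miR-60-5p place 135. A ratio above 1 was itself common, at 64.5% of the compared loci, and 3p arms in general had a median log2 ratio of 0.17 (15 of 76 higher and 5 lower) against 0.07 for 5p arms (5 of 64 higher and 4 lower). For chromosome X, where mir-240 and mir-786 lie, 46 loci had a median of 0.33, with 8 higher and 5 lower. For chromosome II, where mir-60 lies, 34 loci had a median of -0.05, with 3 higher and 4 lower. These counts include the members themselves, and the 8 of chromosome X include an overlapping miR-5592 pair with identical counts, described below.

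**Figure D2:**
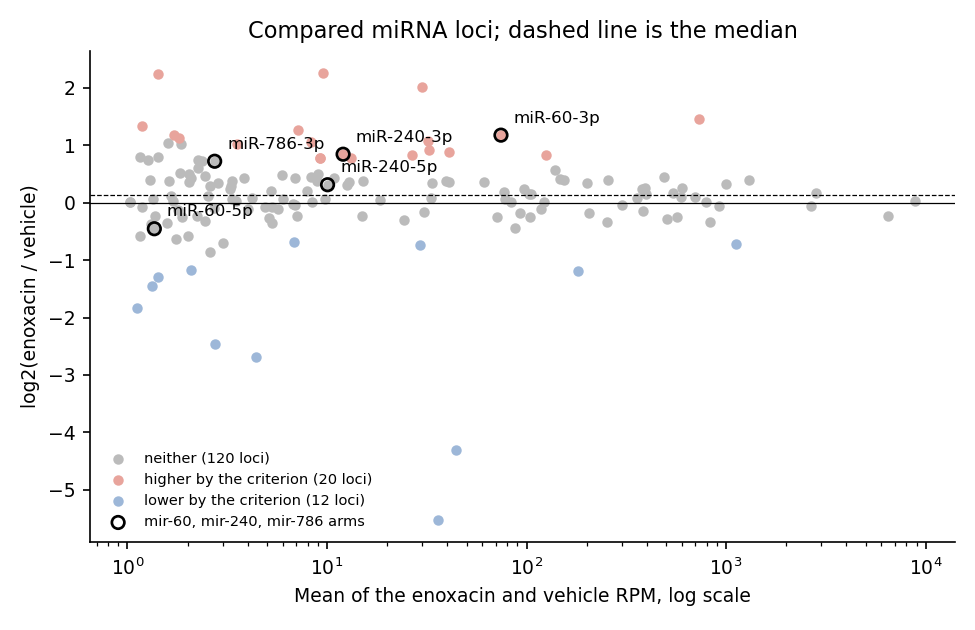
Each of the 152 compared loci by its mean RPM (log axis) and its log2 ratio of enoxacin to vehicle (0.5 reads added to each count); circles mark the 5 compared arms, the solid line a log2 ratio of 0 and the dashed line the median of 0.13. miR-60-3p and miR-240-3p are among the 20 higher loci, and miR-240-5p, miR-786-3p and miR-60-5p are among the 120 that were neither.

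Whether the members differed from one another in their ratio was asked next, through ratios of ratios that do not depend on any scaling. Of the 3 pairs of 3p arms, miR-60-3p over miR-240-3p gave 1.26 (0.932 to 1.69), miR-60-3p over miR-786-3p gave 1.36 (0.740 to 2.47) and miR-240-3p over miR-786-3p gave 1.08 (0.558 to 2.08). All 3 intervals held 1, so no difference between the 3p arms was detectable at this depth, but the widest of them also allowed one of more than 2-fold. With arms summed, mir-60 over mir-240 gave 1.46 (1.16 to 1.83), an interval above 1. mir-60 over mir-786 gave 1.65 (0.960 to 2.83) and mir-240 over mir-786 gave 1.13 (0.641 to 1.99). With arms summed, mir-60 thus had a higher ratio than mir-240 beyond counting error, although their 3p arms did not differ detectably. The mir-240 sum includes miR-240-5p (ratio 1.24), which made up 41.9% of its reads in enoxacin and 51.1% in vehicle. The clustered hairpins could not be told apart.

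Both arms of a hairpin were counted in the same library, so the share of the 5p arm is also free of scaling. For mir-60 the 5p arm made up 1.09% of the reads in enoxacin (exact binomial interval 0.524 to 1.996%) and 3.37% in vehicle (1.97 to 5.34%). The odds of a mir-60 read being 5p were 0.317 times those in vehicle (0.129 to 0.739), so the share was lower in enoxacin beyond counting error. For mir-240 the 5p share was 41.9% in enoxacin (35.5 to 48.5%) and 51.1% in vehicle (43.7 to 58.4%), an odds ratio of 0.691 (0.461 to 1.04). For mir-786 it was 9.09% in enoxacin (1.92 to 24.3%) and 26.7% in vehicle (12.3 to 45.9%), an odds ratio of 0.281 (0.0430 to 1.34). The odds ratio was below 1 in all 3 hairpins, but the interval excluded 1 for mir-60 alone. Over the 80 hairpins with reads from both arms and at least 20 reads in all, it was below 1 in 43 and above 1 in 37. The interval lay below 1 in 8.75% of them and above 1 in 6.25%.

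**Figure D3:**
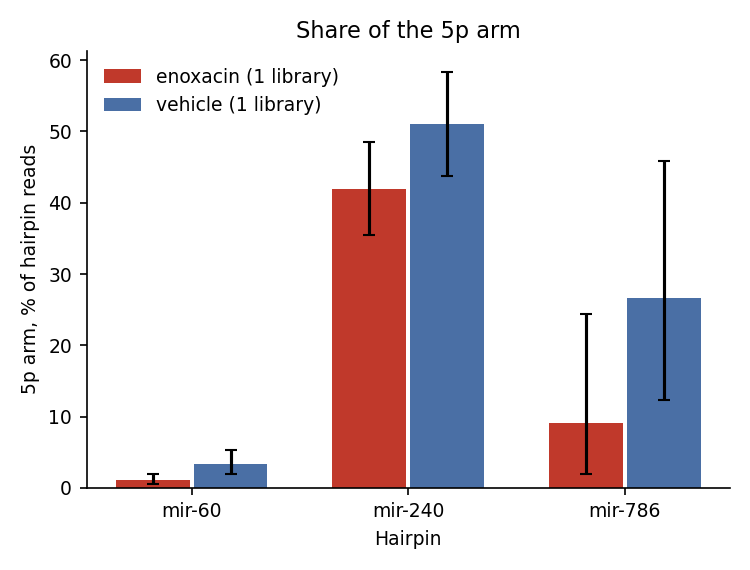
Share of the 5p arm in the reads of each hairpin, in percent, with the enoxacin library left of the vehicle library; bars start at 0 and error bars are 95% exact binomial intervals. mir-60 is nearly all 3p in both libraries (5p 1.09% in enoxacin, 3.37% in vehicle), whereas mir-240 is close to evenly divided (41.9% in enoxacin, 51.1% in vehicle).

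By position, mir-240 and mir-786 form a compact pair on the plus strand of chromosome X. Between the last base of miR-240-3p and the first base of miR-786-5p lie 62 bases, and the arms of each hairpin are 16 and 15 bases apart for mir-240 and mir-786 and 17 bases apart for mir-60. Despite this closeness, mir-240 had 7.09 times the reads of mir-786 in enoxacin and 6.27 times in vehicle. The next miRNA hairpin listed beyond mir-786 is mir-784, 192.1 kb away, with 1 read in enoxacin and 2 in vehicle. On the other side is mir-4811, 697.2 kb away, with no read in enoxacin and 1 in vehicle. mir-60 stands alone, with mir-1822 at 313.1 kb (14 reads in enoxacin, 10 in vehicle) and mir-2953 at 418.4 kb (no read in either library) as its nearest listed neighbours. No called locus was therefore next to a member other than within the pair itself.

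**Figure D4:**
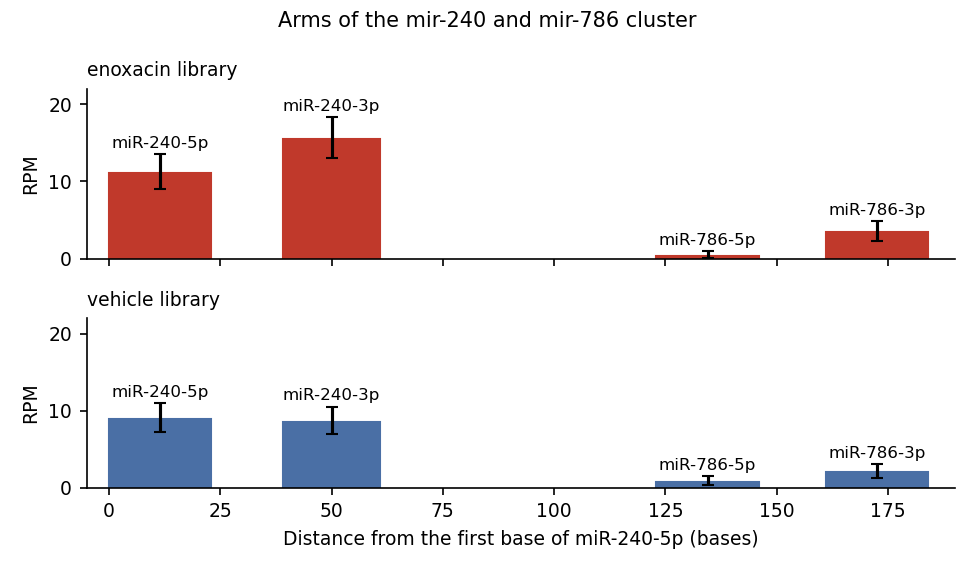
Arms of the mir-240 and mir-786 hairpins drawn to scale by distance in bases from the first base of miR-240-5p, with the enoxacin library above the vehicle library; bar heights are RPM and error bars 95% exact Poisson intervals. miR-240-3p is the tallest bar in enoxacin (15.5 RPM) and about level with miR-240-5p in vehicle (8.60 and 8.97 RPM), and the mir-786 arms are low in both.

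In the WBcel235 annotation, used by gene name, none of the 3 hairpins overlaps a protein-coding gene. mir-60 lies between sma-6, a receptor gene of the body-size TGF-beta pathway, and set-4, a histone methyltransferase gene. mir-240 and mir-786 lie between C39D10.8 and pcyt-2.2. On the opposite strand, the non-coding RNA gene C32D5.15 overlaps mir-60, and another miRNA hairpin, mir-8203, overlaps mir-786. No source used here says whether counting was by strand. The table lists 3 pairs of mature loci that overlap on opposite strands, and 2 of them hold identical counts in both libraries. Those are miR-356a with miR-356b-3p (4 reads each in enoxacin, 5 each in vehicle) and 1 copy of miR-5592-5p with miR-5592-3p (102 each in enoxacin, 72 each in vehicle). Both loci of that miR-5592 pair, on chromosome X, were called higher. The 13.2% of loci higher in enoxacin, and the higher loci of chromosome X, may thus count the same reads more than once. The other copy of miR-5592-5p and miR-5592-3p had 89 and 84 reads in enoxacin and 83 and 75 in vehicle. Whether the counts of mir-60 or mir-786 hold reads of the antisense genes could therefore not be told. The overlaps are with the hairpins, and overlap with the mature positions was not looked up. mir-8203 was not analysed here. No overlapping gene was annotated at mir-240.

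By levels in both libraries, the loci most like each member were found by distance in log2 RPM over the 2 libraries. Closest to miR-60-3p were miR-237-5p (distance 0.62), miR-235-3p (0.74) and miR-44-3p (0.83), with ratios of 1.29, 1.14 and 1.05. They matched its abundance more than its ratio, and each was neither higher nor lower. Closest to miR-240-3p were miR-75-3p (0.19), which was higher with 146 reads in enoxacin and 103 in vehicle (1.73, 1.33 to 2.24), and then miR-246-3p (0.33) and miR-58-5p (0.40). miR-246-3p, a miRNA known from the gonadal sheath, was also the closest to miR-240-5p (0.16), ahead of miR-239a-3p (0.18) and miR-5592-5p (0.25). Closest to miR-786-3p were miR-357-3p (0.26), miR-63-5p (0.29) and miR-58b-3p (0.31), and closest to miR-60-5p were miR-250-5p (0.08), miR-50-3p (0.16) and miR-44-5p (0.30). With 2 libraries this likeness describes level and ratio and no more.

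Other miRNAs linked to intestine or gonad (all arms of mir-71, mir-233, mir-58 and mir-246) gave 6 compared loci of 8, of which 1 was higher, none was lower and 5 were neither. The higher one was miR-58-3p, an abundant miRNA outside the nervous system, with 1073 RPM in enoxacin and 392.8 RPM in vehicle. miR-246-3p had 109 reads in enoxacin and 98 in vehicle, a ratio of 1.35 (1.02 to 1.80). miR-71-5p, known to promote lifespan, had a ratio of 1.01 (0.976 to 1.04), and miR-233-3p had 32 reads in each library (1.22, 0.722 to 2.05). The median log2 ratio of the 6 was 0.32, against 0.13 over all compared loci. The summed level of the list was 1899 RPM in enoxacin and 1205 RPM in vehicle, and without miR-58-3p it was 825.4 RPM in enoxacin and 812.5 RPM in vehicle. 

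The summed levels of miRNAs that mark other tissues were closer between the libraries than that of miR-60-3p. Of the compared muscle (2), neuron (1) and epidermis or glia (1) loci none was called. The summed level was 370.0 RPM in enoxacin and 409.1 RPM in vehicle for the muscle miRNA mir-1. It was 13.9 RPM in enoxacin and 16.3 RPM in vehicle for the neuronal mir-124 with lsy-6, which had no read, and 123.5 RPM in enoxacin and 123.1 RPM in vehicle for mir-228 of epidermis and glia. The embryonic mir-35 to mir-42 loci, 14 compared of 16, had 1 higher and 1 lower and a summed level of 5355 RPM in enoxacin and 5666 RPM in vehicle. Their 3p arms had ratios from 0.790 (0.746 to 0.836) for miR-42-3p to 1.32 (1.23 to 1.43) for miR-40-3p. The near-equal embryonic sum thus pools loci that went both ways beyond counting error. Whether the make-up of the worms has a part in the members' values was not tested.

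Only the 3p arm of each member was set against these sums, although the sums pool all arms of their miRNAs. With arms summed, the members' own ratios of enoxacin to vehicle were lower, at 2.21 for mir-60, 1.52 for mir-240 and 1.34 for mir-786. Set against these sums, miR-60-3p had a ratio that was 2.50 times that of the muscle reads (2.22 to 2.82), 2.65 times that of the neuronal reads (2.04 to 3.46) and 2.39 times that of the embryonic reads (2.14 to 2.68). It was 2.26 times that of the mir-228 reads (1.96 to 2.59). For miR-240-3p the same values were 1.99 (1.51 to 2.63), 2.11 (1.46 to 3.04), 1.90 (1.45 to 2.51) and 1.79 (1.35 to 2.39). For miR-786-3p they were 1.84 (1.02 to 3.35), 1.94 (1.03 to 3.72), 1.76 (0.980 to 3.20) and 1.65 (0.917 to 3.03), so the last pair of intervals held 1. Against the summed reads of the other intestine or gonad miRNAs, miR-60-3p was at 1.44 (1.28 to 1.61), miR-240-3p at 1.14 (0.869 to 1.51) and miR-786-3p at 1.05 (0.588 to 1.92). That sum rested on miR-58-3p. Without it, in an alternative chosen after seeing the data, miR-60-3p was at 2.23 (1.98 to 2.50), miR-240-3p at 1.77 (1.35 to 2.34) and miR-786-3p at 1.63 (0.911 to 2.98). The interval of miR-240-3p thus held 1 with miR-58-3p in the sum and lay above 1 without it, and that of miR-786-3p held 1 both ways. Without miR-58-3p the sum was mostly miR-71-5p, with 6954 of 7253 reads in enoxacin and 8404 of 8693 in vehicle. The values without miR-58-3p thus set the members mainly against miR-71-5p and say little about the other loci of the list.

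The calls for single arms did not depend on the scaling. Over the authors' totals and the 4 other scalings, the log2 ratio of miR-60-3p stayed between 1.04 and 1.18 and that of miR-240-3p between 0.71 and 0.85, and both were higher by the criterion throughout. miR-60-3p also passed a 2-fold threshold and miR-240-3p did not. miR-786-3p ran from 0.59 to 0.72 and was neither under each, since its interval decided the call.

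**Figure D5:**
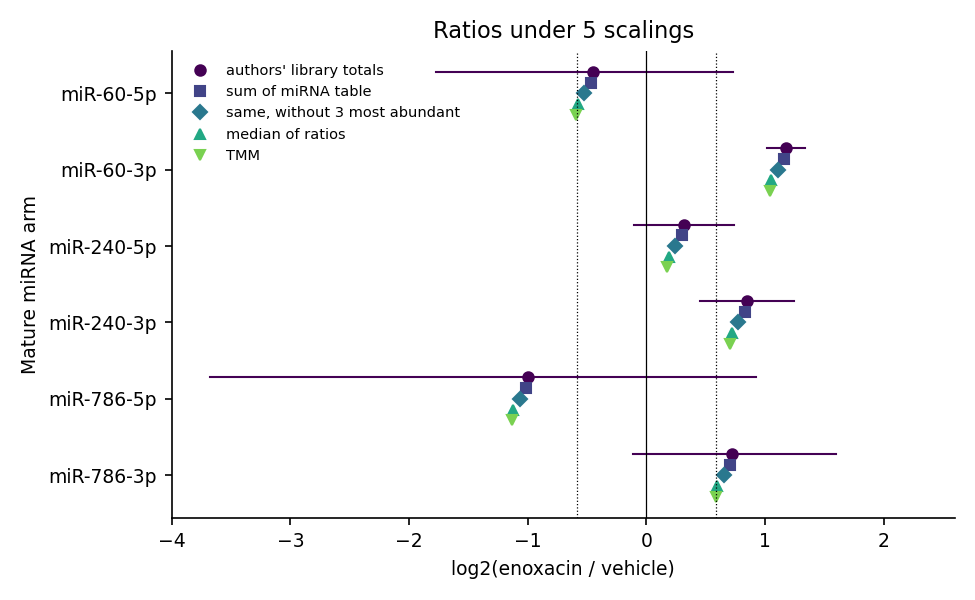
Log2 ratios of enoxacin to vehicle for the 6 arms under 5 scalings (symbols), with the 95% counting interval of the ratio under the authors' library totals (lines) and dotted lines at 1.5-fold. Each of the other scalings moves all arms by 1 common step to the left, and miR-60-3p (1.04 to 1.18) and miR-240-3p (0.71 to 0.85) stay right of the 1.5-fold line.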

How the data were processed

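Per the labels' protocols, small RNA was enriched from 10 µg of TRIzol-extracted total RNA per group (RNA integrity number above 9), followed by library preparation with a SOLiD kit. The submitters' processing notes name Bowtie2, bedtools and the build ce10. Read filters, strandedness and the treatment of multiply mapping reads are unstated in these sources. The authors deposited raw read counts per mature locus, RPM values, the ratio of enoxacin over vehicle RPM and its log2. The control column was matched to the vehicle sample, which its label describes as control worms. The RPM columns equalled each count divided by 1 fixed total per library, and the deposited ratios equalled those computed here.

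Ratios used these totals with exact conditional binomial (Clopper-Pearson) 95% intervals, and log2 ratios added 0.5 reads. Ratios of ratios and arm odds used the exact conditional odds ratio. The limit for a count of 0 was 3 counts. Reads carry no molecular identifiers, so intervals and limits cover counting error only and no p-value was computed. Members and lists were chosen with earlier results of these data known. The named loci are all member arms, the 3 loci most like each compared member, the nearest hairpins and the list members. Loci sharing a seed were not looked up, and no sequence is shown. Annotation came from WBcel235 (Ensembl) by name, with no coordinates carried over. The criterion was run on simulated counts with counting error only. These hold no spread between libraries, so that run says nothing about replicate error. Alternatives were 4 scalings (TMM from edgeR 4.0.16), a pseudocount of 1, minimums of none or 100 reads, a higher (2-fold) and a lower threshold, and summed arms. Python 3.11.15, scipy 1.17.1 and R 4.3.3 were used.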

Additional observations from a re-analysis of the deposited data

How the results depend on the processing

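Of 63 values of the member arms and hairpins under alternatives, 57 kept their call and stayed inside their counting interval, 6 lost the call and none changed direction. Another threshold leaves the log2 ratio itself unchanged, and no scaling moved it by more than 0.14. Staying inside the interval was therefore largely set in advance. The 63 values include those of miR-786-5p, which fell under the minimum of 20 reads. The call of miR-240-3p was lost at a threshold of 2-fold (log2 ratio 0.85). That of mir-240 with both arms summed was lost at 2-fold (log2 ratio 0.60), with the sum of the miRNA table (0.58), without its 3 most abundant loci (0.53), with the median of ratios (0.47) and with TMM (0.46). The median of ratios and TMM shifted all log2 ratios by -0.13 and -0.14. Loci higher in enoxacin numbered 20 of 152, and 12 at 2-fold and 35 at the lower threshold. Loci lower numbered 12, and 6 with a minimum of 100 reads. With arms summed the counts were 13 higher and 7 lower of 103 hairpins, nearly the same shares (12.6% and 6.8%, against 13.2% and 7.89% of loci). List medians were set against the counting interval of the list's middle locus, or of both middle loci where its number was even. Of 35 such medians 4 lay outside it: the neuron list stood at 0.82 with no minimum, against -0.24, through 1 read of miR-124-5p, and the epidermis and glia list at -0.12 with the median of ratios, -0.13 with TMM and -0.49 with no minimum, against 0.01. The ratio of miR-240-3p to the other intestine or gonad sum was 1.14 with miR-58-3p in the sum and 1.77 without it. Without miR-58-3p that sum was mostly miR-71-5p. The epidermis and glia list had 1 compared locus, miR-228-5p, so each scaling shift moved its median by the same step. With no minimum, miR-228-3p (3 reads in enoxacin, 8 in vehicle) joined that list. No paired analysis was possible because each group had 1 library, and for the same reason no replicate could be left out. Depth limits mir-786 and miR-60-5p most.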
